A study of Homo sapiens with 72 samples.

Results

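The CDC-like kinases CLK1, CLK2, CLK3 and CLK4 and the L-type cyclins CCNL1 and CCNL2 were followed in A375 cells, an established human melanoma line. The 6 genes were taken by symbol from the 44659 gene names of the raw count table, and they were selected on the loss of their mRNAs after transcription had been blocked. Cytoplasmic RNA had been sequenced from the mRNA 3′ end (QuantSeq) in 72 libraries, 3 replicates in each of 24 groups. In one experiment, cells were reverse-transfected for 42 h with 2 pooled siRNAs against CTU2 (siCTU2) or with the control siRNA (siGL2), and in the other glutamine was withheld from the medium for 18 h (mQ) or was present (pQ). All 4 conditions then received triptolide at 25 µM (T arm), which blocks transcription, or triptolide with cycloheximide at 100 µg/ml (TCHX arm), which blocks translation as well, for 0, 3 or 5 h. Every group was the same cell line. By the labels, the 0 h cells were harvested as soon as the drugs had been added, so those of the TCHX arm had met cycloheximide briefly. The labels do not give the time. The study's decay protocol, described for another treatment of these cells, added cycloheximide 5 min before triptolide. CTU2 is a subunit of the enzyme that adds sulfur to the wobble uridine of the tRNAs that read AAA, GAA and CAA codons.

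CLK kinases phosphorylate SR proteins, the serine- and arginine-rich splicing factors, and thereby set where these factors are in the nucleus and how they act on exons. L-type cyclins are the partners of CDK11, a kinase that acts in transcription and pre-mRNA splicing, and they carry an SR-like domain of their own. CLK1 and CLK4 are known for transcripts that keep introns in the nucleus and are spliced on demand, and CCNL1 is known as an immediate early gene. The libraries hold cytoplasmic RNA read from the 3′ end, so nuclear transcripts that keep introns were not measured as such. How free of nuclear RNA the libraries were was not tested.

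Between 5987692 and 15534331 reads were counted per library. CTU2 was at 2.95, 1.01 and 1.32 CPM (reads of the gene per 1000000 counted reads) in the siCTU2 T-arm libraries at 0 h and at 21.1, 22.0 and 24.2 CPM in those of siGL2. The library labelled siCTU2 TCHX 5 h replicate 3 went against its label, with CTU2 at 10.4 CPM. It was also one of 3 libraries with counts in 19896 to 20364 gene names, next to mQ T 5 h replicate 3 and pQ TCHX 0 h replicate 3, whereas no other library went above 17495. Values without these libraries, or without replicate 3, are given beside many of the results they touch. Melanocyte markers were only in part present: SOX10, MITF, S100B and DCT averaged 62.6 CPM or more over the 12 T-arm libraries at 0 h, whereas PMEL averaged 4.75 CPM, and MLANA, TYR and TYRP1 averaged under 1 CPM. Whether replicates came from separate cultures is not given in the sources used here, so p-values measure the spread between these libraries. A smaller RNA amount per cell and a smaller number of cells cannot be told apart in such bulk samples.

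CLK2 was practically uncounted, with 4 reads in all 72 libraries and at most 2 in any of them. A second row of the table, named CLK2_1, held at most 5 reads in a library. A floor of 3 reads corresponds to 0.193 to 0.501 CPM, depending on library depth, and CLK2 was under it in every library. Whether reads of CLK2 were counted elsewhere or not at all was not tested, so the low count is not read as the level of the mRNA. CLK2 passed no low-count filter and is left out of what follows. The gene lies on the minus strand at chr1:155262868-155278491 (GRCh38).

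The sequences of the other 5 genes were compared first, for features linked to mRNA turnover and to CTU2. CLK1 (chr2:200853009-200864691, minus strand), CLK4 (chr5:178602664-178630615, minus strand) and CCNL1 (chr3:157146508-157160760, minus strand) had coding sequences rich in the codons AAA, GAA and CAA. These made up 10.3% of the codons of CLK1, 11.2% of those of CLK4 and 9.70% of those of CCNL1. The median over 19461 human coding sequences was 5.67%, and 19.3%, 15.1% and 22.7% of them, respectively, had a share at least as high. In CLK3 (chr15:74598500-74645414, plus strand) and CCNL2 (chr1:1385711-1399335, minus strand) the share was 4.49% and 5.19%, below that median. Among the 3 codons, AAA took 4.96% in CLK1, 4.78% in CLK4 and 4.56% in CCNL1, against 1.63% in CLK3 and 2.12% in CCNL2. The first 3 genes are also those whose mRNAs had the least left after the transcription block, as described below. With 5 genes this is a description, and the part of codon content in any result was not tested.

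AU-rich elements of the 3′ UTR are bound by factors that speed up mRNA decay, and ATTTA is their core. The search used these 5 letters on the mRNA strand, counting overlapping matches. The 3′ UTR of CLK4 held 4 of them in 953 bases, that of CCNL1 2 in 688 bases, and those of CLK1 (297 bases), CLK3 (318 bases) and CCNL2 (1520 bases) 1 each. Over 19096 human 3′ UTRs the median was 2, and 67.9% held at least 1. Per 1000 bases, CLK4 had 4.20, CLK1 3.37, CLK3 3.14, CCNL1 2.91 and CCNL2 0.66 matches, with a median of 1.53 over all genes. The longer form TATTTAT occurred only in CLK3, 1 time, and in 31.8% of all genes at least 1 time. CLK3 had more left at 3 h than CLK1, CLK4 and CCNL1, but less than the median gene in every condition. The part of either form in the loss was not tested. The windows below show 1 ATTTA each of CLK1, CLK4 and CCNL1, whose mRNAs had little left after the block, and that of CCNL2, which had much left. Each is 30 bases of the canonical GENCODE transcript, 5′ to 3′ on the mRNA strand, with ATTTA in capitals.
CLK1: aattgtaaagtgATTTAttcagaataaatt
CLK4: tatatacttcaaATTTAgaacttaacttta
CCNL1: agacactgttctATTTAagtggttatttgt
CCNL2: tattatgacataaagaaccATTTAaggcca
The CCNL2 window with its single match covers bases 1491 to 1520, the very end of the 3′ UTR.

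Promoters were searched for TGACG, the short form of the cAMP response element TGACGTCA, on both strands of the 300 bases around each RefSeq start. All 6 genes had a start window. CLK1, CLK3, CLK4, CCNL1 and CCNL2 held the short form in at least 1, and CLK2 had none. Of 35116 windows over 27305 genes, 24.6% held it, a share of windows and not of genes. CCNL1 had the whole element, which contains the short form on both strands and which 1.85% of windows held. CLK1 and CLK3 have 2 start windows each. Those of CLK1 overlap and share the match, and 1 of those of CLK3 had no match. The 60 bases around the match are shown for CLK1, CLK4 and CCNL1, whose mRNAs had the least left after the block, from RefSeq on GRCh38.p14, 5′ to 3′ on the gene's strand, with each match in capitals.
CCNL1, chr3:157160200-157160259: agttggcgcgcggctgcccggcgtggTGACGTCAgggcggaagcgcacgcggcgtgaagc
CLK1, chr2:200864674-200864733: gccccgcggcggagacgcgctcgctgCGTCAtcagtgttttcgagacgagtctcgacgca
CLK4, chr5:178627131-178627190: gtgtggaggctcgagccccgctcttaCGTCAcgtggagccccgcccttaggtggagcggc
A match describes the letters alone. CCNL2, whose mRNA had much left after the block, held the short form too, so it did not separate the 5 genes.

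How much of each mRNA was left after the block is given next as a description with no test, since the loss of these mRNAs was what they were chosen on. Counts were normalised to genes whose share of reads held up after triptolide (stable genes), since CPM sums to the same total whatever is lost. CLK1, CCNL1 and CLK4 had the least left in every condition at 3 h. In pQ cells, CCNL1 was at 1168, 1174 and 1046 normalised counts at 0 h, at 67.5, 93.6 and 87.4 at 3 h and at 21.6, 53.5 and 10.8 at 5 h. The libraries of each time did not overlap with those of the time before. At 3 h, the CCNL1 share left in the T arm was 7.33% ± 1.21 of the 0 h mean in pQ, 19.0% ± 2.19 in mQ, 11.8% ± 0.781 in siGL2 and 13.8% ± 0.958 in siCTU2 (SD, n = 3). By 5 h it was 2.02% ± 0.560 in siGL2 and 4.89% ± 2.28 in siCTU2.

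CLK1, the kinase with the best studied activity on SR proteins, had 5.27% ± 1.65 left at 3 h in pQ, 5.73% ± 3.15 in mQ, 8.13% ± 3.06 in siGL2 and 10.2% ± 4.46 in siCTU2. In the pQ T arm its normalised counts were 291, 254 and 305.7 at 0 h and 10.5, 19.8 and 14.6 at 3 h. All 3 libraries at 3 h were thus far under every library at 0 h. CLK4, its closest relative in the family, had 10.5% ± 6.50 to 21.0% ± 5.54 left at 3 h across the 4 conditions. At 5 h the CLK4 counts were close to the floor, from 0 reads in pQ replicate 1 to 20 reads in siCTU2 replicate 2, apart from 77 reads in mQ replicate 3.

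CLK3 and CCNL2 were not short-lived to this extent. For CLK3, a kinase of the same family, 63.8% ± 6.17 was left at 3 h in siGL2, 53.8% ± 3.23 in siCTU2, 51.6% ± 9.33 in pQ and 34.6% ± 4.30 in mQ. CCNL2 had 85.3% ± 5.69, 67.7% ± 5.13, 65.9% ± 4.76 and 67.8% ± 2.17 left in the same order. The median over all genes with a mean of at least 10 normalised counts at 0 h was 71.6% in siGL2, 67.8% in siCTU2, 61.3% in pQ and 60.4% in mQ. CCNL2 was thus near or above the median gene in every condition. In pQ, 0.845% of genes had less left than CLK1, 1.26% less than CCNL1, 5.41% less than CLK4, 30.04% less than CLK3 and 62.2% less than CCNL2. For all 5 genes, the 3 h libraries of the T arm lay under the 0 h libraries in all 4 conditions, as they did for 64.4% of genes in siGL2, 71.5% in siCTU2, 80% in pQ and 71.9% in mQ.

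**Figure D1:**
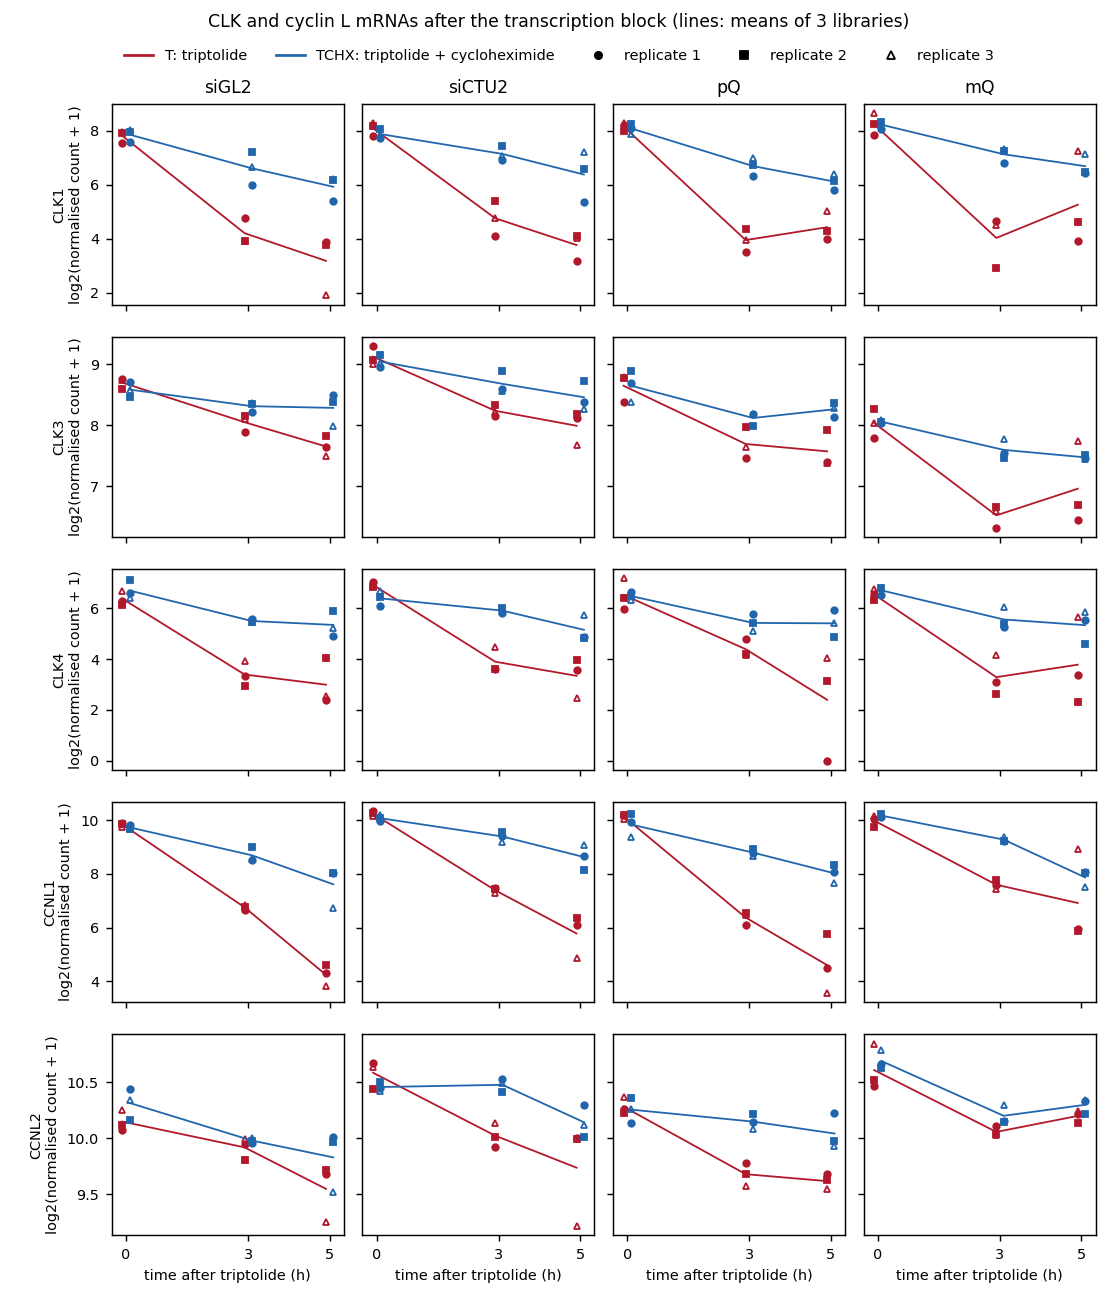
Normalised counts (log2 of the count + 1, vertical axes differ between rows) of 5 mRNAs against time after triptolide in the T arm (red) and the TCHX arm (blue) of each condition; symbols are libraries, open triangles replicate 3, lines the means of 3 libraries. CLK1, CLK4 and CCNL1 separated widely between the arms, whereas CCNL2 had 65.9% to 85.3% left in the T arm at 3 h, and mQ replicate 3 of the T arm at 5 h lay above replicates 1 and 2 for CLK1, CLK3, CLK4 and CCNL1.

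Cycloheximide was compared with triptolide alone next, as values side by side with no test, since the T libraries are the same ones. More of CLK1, CLK4 and CCNL1 was left when translation had been blocked as well. At 3 h in pQ, CCNL1 was at 439, 485 and 408 normalised counts in the TCHX arm and at 67.5, 93.6 and 87.4 in the T arm. These groups did not overlap, and their means differed by 5.36-fold, or 2.42 ± 0.16 on the scale of log2(normalised count + 1) (SE, n = 3). In the other conditions the CCNL1 difference at 3 h was 1.93 ± 0.17 in siGL2, 2.00 ± 0.12 in siCTU2 and 1.68 ± 0.11 in mQ. For CLK1 it was 2.39 ± 0.45, 2.38 ± 0.39 and 3.09 ± 0.59 in these, and 2.73 ± 0.32 in pQ. CLK4 differed by 2.11 ± 0.29 in siGL2, 2.01 ± 0.29 in siCTU2, 1.04 ± 0.27 in pQ and 2.27 ± 0.51 in mQ. At most 5.63% of genes had a larger difference in the same condition than any of these 12 values.

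CLK3 differed less between the arms at 3 h, by 0.26 ± 0.09 in siGL2, 0.44 ± 0.12 in siCTU2, 0.43 ± 0.16 in pQ and 1.07 ± 0.14 in mQ. In mQ its normalised counts were 187, 175 and 220 in the TCHX arm and 78.8, 100 and 95.7 in the T arm. That was the condition with both its smallest share left and its widest gap. CCNL2 was 0.06 ± 0.06 higher in TCHX in siGL2, 0.14 ± 0.05 in mQ, 0.45 ± 0.07 in siCTU2 and 0.47 ± 0.07 in pQ. Its libraries overlapped between the arms in siGL2. All 3 TCHX libraries lay above all 3 T libraries at 3 h for 4 of the 5 genes in siGL2, where 17.4% of genes did, and for 5 of 5 in siCTU2 (25.5% of genes), pQ (16.6%) and mQ (29.3%). At 5 h this held for 4 of 5 in siGL2 (13.7% of genes), 5 of 5 in siCTU2 (24.9%) and pQ (16.8%), and 0 of 5 in mQ (4.69%).

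The count in mQ at 5 h turned on replicate 3 of the T arm. CCNL1 was at 61.6, 57.4 and 484 normalised counts in these 3 libraries, CLK1 at 13.9, 23.8 and 151, and CLK4 at 9.30, 3.96 and 49.8. Replicate 3 was the highest of the 3 each time. Without replicate 3, TCHX was above T at 5 h in mQ by 2.14 for CCNL1, 2.198 for CLK1 and 2.24 for CLK4 on the log2 scale, compared with 0.95 ± 1.02, 1.42 ± 1.04 and 1.56 ± 1.06 with it. Likewise, the TCHX library with the intermediate CTU2 level entered the siCTU2 values at 5 h. The TCHX and T arms of siCTU2 differed there by 1.81 ± 0.53 for CLK4 with replicate 3 and by 1.09 without it, and by 2.84 ± 0.53 and 2.16 for CCNL1. What sets these libraries apart was not tested.

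Whether CTU2 knockdown changed these mRNAs before the block was tested at 0 h in the T arm (edgeR, adjusted over all genes). CLK3, CCNL1 and CCNL2 rose in siCTU2 cells by about the same amount. CCNL1 was at 93.7, 93.6 and 84.0 CPM in siCTU2 and at 76.0, 70.9 and 71.99 CPM in siGL2, with no overlap and a log2 change of 0.31 ± 0.09 (SE, edgeR adjusted p = 0.0107). CCNL2 was at 118, 107 and 119 CPM against 85.1, 86.2 and 101 CPM, with no overlap and a change of 0.33 ± 0.09 (adjusted p = 0.00739). CLK3 was at 45.7, 41.3 and 38.4 CPM against 34.3, 30.05 and 35.4 CPM, again with no overlap (0.33 ± 0.12, adjusted p = 0.0397). CLK1 (0.19 ± 0.17, adjusted p = 0.418) and CLK4 (0.43 ± 0.23, adjusted p = 0.163) did not pass. The 3 genes called were 3 of the 5 tested, all higher, whereas 17.8% of the 12292 genes tested were called higher and 36% were called in either direction. The median log2 change was 0.33 over the 3 kinases tested and 0.32 over both cyclins, next to 0.0048 over all genes.

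The TCHX arm at 0 h holds other libraries of the same conditions, but after the brief cycloheximide exposure, so it is not a plain repeat of the T arm. There, CLK3 (0.48 ± 0.12, adjusted p = 0.00268) and CCNL1 (0.37 ± 0.09, adjusted p = 0.00369) rose too. CCNL2 changed by 0.16 ± 0.09 (adjusted p = 0.154), and CLK4 went from 0.43 in the T arm to -0.30 ± 0.25 (adjusted p = 0.375). The CLK3 call in the T arm was lost when any of 4 of the 6 libraries was left out, with adjusted p between 0.0689 and 0.158, and with DESeq2 (adjusted p = 0.0658). Leaving out siGL2 replicate 1 also ended the CCNL2 call (adjusted p = 0.0577), so that 1 gene, CCNL1, was called without that library.

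Glutamine removal was tested in the same way. CCNL2 rose and CLK3 fell in mQ cells, whereas the other members did not pass. CCNL2 was at 118, 114 and 133 CPM in mQ and at 94.3, 85.4 and 100.2 CPM in pQ, with no overlap and a log2 change of 0.44 ± 0.11 (adjusted p = 0.0149). CLK3 was at 18.6, 23.97 and 19.1 CPM against 25.7, 31.3 and 33.7 CPM, with no overlap and a change of -0.50 ± 0.17 (adjusted p = 0.047). CLK1 (0.21 ± 0.19), CLK4 (0.03 ± 0.31) and CCNL1 (-0.04 ± 0.12) did not pass, with adjusted p of 0.446, 0.955 and 0.83. The 2 calls among 5 genes compare with 24.8% of 12374 genes called. The CLK3 call was lost when any of 5 of the 6 libraries was left out, all but mQ replicate 2, with adjusted p between 0.0534 and 0.162, and with the replicate block (adjusted p = 0.0611). The CCNL2 call was lost without pQ replicate 1 (adjusted p = 0.0614) or pQ replicate 2 (adjusted p = 0.0888), so that neither gene was called without either of these libraries. In the TCHX arm at 0 h, CLK3 fell (-0.63 ± 0.14, adjusted p = 0.0301) and CCNL2 changed by 0.39 ± 0.12 (adjusted p = 0.0906). With the pQ TCHX replicate 3 library left out, an alternative chosen after seeing the data, both passed there, CCNL2 at 0.50 ± 0.11 and CLK3 at -0.67 ± 0.15 (adjusted p = 0.00176 and 0.0032).

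**Figure D2:**
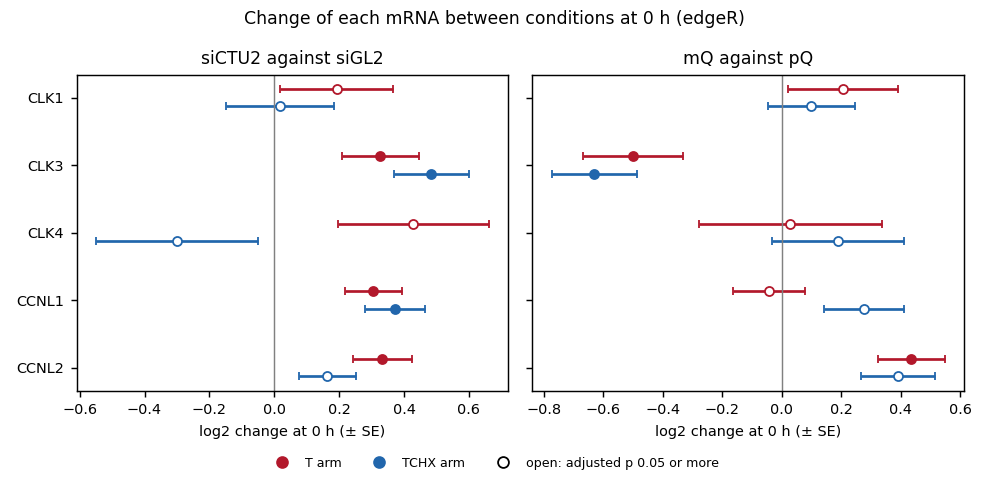
Log2 change between conditions at 0 h (horizontal axis, bars ± SE, edgeR) for each mRNA in the T arm (red) and the TCHX arm (blue), open symbols where the adjusted p was 0.05 or more. CLK3 passed in both arms, at 0.33 and 0.48 in siCTU2 and at -0.50 and -0.63 in mQ, whereas CLK4 lay at 0.43 in one arm and at -0.30 in the other.

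CLK3 was thus higher in siCTU2 and lower in mQ, each against its own control, and the difference between these changes was not tested. Its mean levels in the T arm at 0 h rose in the order mQ (20.5 CPM), pQ (30.2 CPM), siGL2 (33.3 CPM) and siCTU2 (41.8 CPM). The libraries of pQ and siGL2 overlapped, and those of the other neighbours did not. For CLK1, CLK4 and CCNL1 all neighbours in the order overlapped. In CCNL2, the order was siGL2 (90.9 CPM), pQ (93.3 CPM), siCTU2 (115 CPM) and mQ (122 CPM), with a gap between pQ and siCTU2 alone. Levels are set side by side here within a gene and were not compared between genes.

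One keratinocyte marker, KRT10, was called higher in siCTU2 (0.46) and lower in mQ (-0.74). Over all genes, 17.8% were called higher in siCTU2 and 12.4% lower in mQ. The summed level of the 5 keratinocyte markers was 255 to 297 CPM in siCTU2, 186 to 215 CPM in siGL2, 99.7 to 134 CPM in mQ and 179 to 233 CPM in pQ at 0 h. KRT10 made up nearly all of it, since KRT5, KRT1 and TP63 were at 0 in the 12 libraries and KRT14 averaged 0.239 CPM. Of the 5 fibroblast markers only LUM reached 1 CPM, and the 5 blood cell markers summed to at most 0.571 CPM. Of the 8 melanocyte markers 5 were tested, with MITF lower in both siCTU2 (-1.48) and mQ (-1.16) and DCT higher in siCTU2 (0.77). Of 5 markers of the dedifferentiated melanoma state, 3 were higher and 2 lower in siCTU2, and 0 were called in mQ. The part of these cell states in the changes of CLK3, CCNL1 and CCNL2 was not tested.

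**Figure D3:**
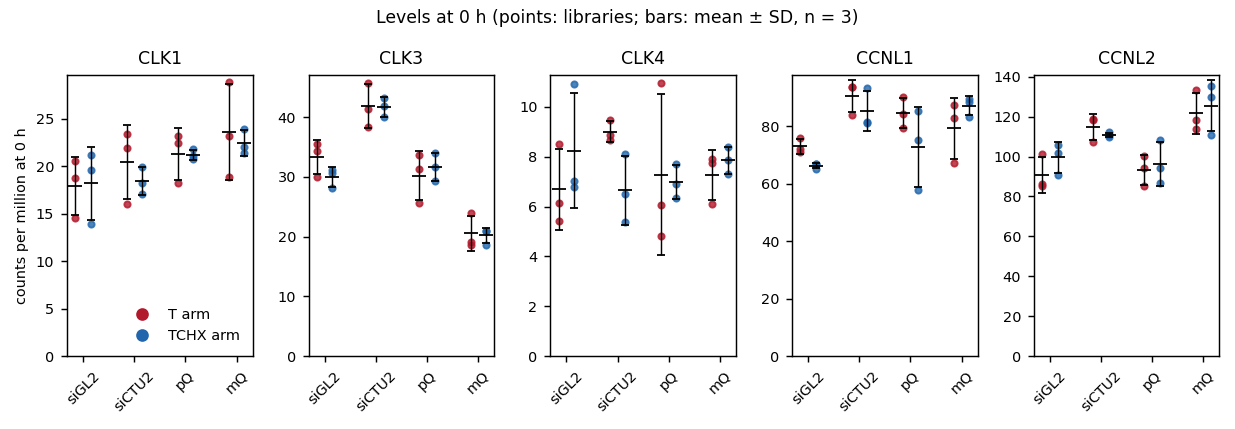
CPM (vertical axes from 0) of each mRNA at 0 h in the 4 conditions, T arm in red and TCHX arm in blue; points are libraries, bars mean ± SD of 3. CLK3 was lowest in mQ (20.5 CPM in the T arm) and highest in siCTU2 (41.8 CPM), and CCNL2 was at 115 and 122 CPM in siCTU2 and mQ against 90.9 and 93.3 CPM in their controls.

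The relatives, partners and substrates of these proteins were counted at 0 h from lists of genes. Of the kinases next to the CLK family, the SR protein kinases SRPK1 to SRPK3, PRPF4B and the DYRK kinases, 7 of 9 were tested. In siCTU2, 0 were higher and 1 lower, DYRK2 (-0.39 ± 0.09, adjusted p = 0.00223). In mQ, 1 was higher and 2 lower, with DYRK2 changed most (-0.63 ± 0.12, adjusted p = 0.00306). Among the cyclin-dependent kinases of transcription and splicing, 8 of 9 were tested, with 0 higher and 3 lower in siCTU2, led by CDK19 of the Mediator complex (-0.84 ± 0.17, adjusted p = 0.000727). In mQ, 2 were higher and 3 lower, with CDK9, the elongation kinase, changed most (-1.35 ± 0.33, adjusted p = 0.0121). The 2 higher ones were the L-type cyclin partners CDK11A (0.65 ± 0.19, adjusted p = 0.0274) and CDK11B (0.43 ± 0.12, adjusted p = 0.0185), named here after their values were seen. These paralogs are nearly identical, so reads may be split between them.

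All 6 other transcription cyclins were tested, with 1 higher and 2 lower in each comparison. CCNT1, a CDK9 partner, changed most in siCTU2 (-0.41 ± 0.10, adjusted p = 0.00477), and CCNH, the CDK7 partner, most in mQ (-1.10 ± 0.30, adjusted p = 0.0196). Of the SR proteins and TRA2 factors, the substrates of CLK kinases, 13 of 14 were tested. None were higher, 4 were lower in siCTU2 and 5 were lower in mQ. SRSF4 changed most in siCTU2 (-0.35 ± 0.08, adjusted p = 0.00318) and SRSF2 most in mQ (-1.22 ± 0.10, adjusted p = 2.02e-05). The median log2 change of this list was -0.13 in siCTU2 and -0.26 in mQ, next to 0.0048 and 0.0097 over all genes. Over all genes, 18.2% were lower in siCTU2, 12.5% higher in mQ and 12.4% lower in mQ.

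Next, the change from 0 h to 3 h and 5 h in the T arm was compared between conditions over the 36 libraries of each experiment (edgeR). No member was called in either experiment, where 0.105% of genes were called between siCTU2 and siGL2 and 0% between mQ and pQ. The siCTU2 count over all genes, 15, was 108 without the siCTU2 library with the intermediate CTU2 level, with 0 members called. Between mQ and pQ, 0 of 14177 genes passed by edgeR, 878 had an unadjusted p under 0.05, and DESeq2 called 10. CCNL1 had the largest difference of the members in both. Its log2 difference was 2.17 ± 0.57 in mQ against pQ (adjusted p = 0.701) and 0.77 ± 0.34 in siCTU2 against siGL2 (adjusted p = 0.826), where a value above 0 means that more was left in mQ or siCTU2. For CLK1, CLK3, CLK4 and CCNL2 the difference was 0.84 ± 0.59, -0.24 ± 0.28, 0.36 ± 0.75 and 0.14 ± 0.14 in mQ against pQ, with adjusted p of 0.754 or more. The same 4 genes lay at 0.28 ± 0.50, -0.16 ± 0.19, -0.08 ± 0.51 and -0.28 ± 0.19 in siCTU2 against siGL2.

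Whether the CCNL1 difference under glutamine removal passed depended on replicate 3. Without the replicate 3 libraries it was 1.32 ± 0.25 and called (adjusted p = 0.00178), in a fit that called 6.81% of genes. At 3 h, where no library of the T arm stood apart, CCNL1 was at 192, 217 and 172 normalised counts in mQ and at 67.5, 93.6 and 87.4 in pQ. These libraries did not overlap, although the 0 h libraries did (1042, 865 and 1144 in mQ, 1168, 1174 and 1046 in pQ). How many of all genes did the same was not counted, so this is a description. The 3 h difference on its own was 1.37 ± 0.65 (adjusted p = 1.00). With only the mQ T 5 h and pQ TCHX 0 h libraries of replicate 3 left out, an alternative added later, it was 1.28 ± 0.31 (adjusted p = 0.0757). Without replicate 3, the siCTU2 against siGL2 difference of CCNL1 was 0.86 ± 0.23 (adjusted p = 0.0696).

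The gap between the TCHX and T arms was compared in the same way. It differed between siCTU2 and siGL2 for 0.379% of genes and between mQ and pQ for 0%, with 0 of 14177 called by edgeR, 525 at an unadjusted p under 0.05 and 4 by DESeq2. None of the 5 genes was called in either. For CCNL1 the log2 difference in the gap was -1.86 ± 0.47 in mQ against pQ (adjusted p = 1.00). Without replicate 3 it was -0.91 ± 0.22 and called (adjusted p = 0.0207), in a fit that called 2.13% of genes. CCNL2 differed by -0.33 ± 0.11 in mQ against pQ (adjusted p = 1.00) and by 0.24 ± 0.16 in siCTU2 against siGL2 (adjusted p = 0.731). Both CCNL1 differences in mQ rest on the same T libraries, so they are one observation.

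**Figure D4:**
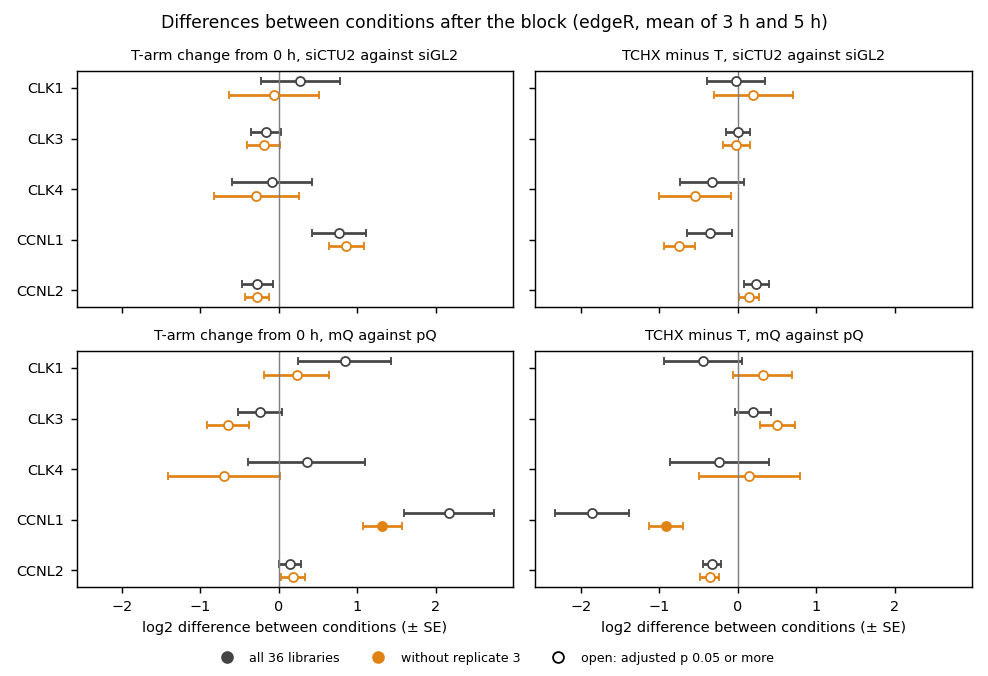
Log2 differences between conditions (horizontal axis, bars ± SE, edgeR) in the T-arm change from 0 h (left) and in TCHX minus T (right), as means of 3 h and 5 h, with all 36 libraries (grey) and without replicate 3 (orange); open symbols have an adjusted p of 0.05 or more. CCNL1 in mQ against pQ was the only mRNA called, at 1.32 and -0.91 without replicate 3.

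Finally, the TDD index, the TCHX level minus the T level divided by the 0 h level, gives translation-dependent decay as a share of the starting mRNA. It was fitted per gene with condition, time and replicate, as in the study. Averaged over 3 h and 5 h, the index of CLK1 was 0.287 ± 0.110 in siGL2, 0.377 ± 0.0620 in siCTU2, 0.247 ± 0.0550 in pQ and 0.280 ± 0.0912 in mQ (SD, n = 3). CCNL1 was at 0.285 ± 0.0808, 0.374 ± 0.0377, 0.289 ± 0.00982 and 0.218 ± 0.117, and CLK4 at 0.357 ± 0.0322, 0.344 ± 0.0396, 0.327 ± 0.183 and 0.301 ± 0.0484. CLK3 was at 0.206 ± 0.0502, 0.191 ± 0.0634, 0.236 ± 0.117 and 0.278 ± 0.128. For these 4 genes the conditions of an experiment overlapped within their SD. Without replicate 3, the difference between mQ and pQ went from 0.03 to 0.11 for CLK1, from 0.04 to 0.14 for CLK3 and from -0.07 to 0.0017 for CCNL1, and that between siCTU2 and siGL2 from 0.089 to 0.031 for CCNL1.

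With all libraries and the study's scale, CCNL2 was the only member past the study's threshold, an unadjusted p of 0.05 or less. Its index was 0.0595 ± 0.0210 in mQ and 0.238 ± 0.0244 in pQ, and all 6 values in mQ (0.0239 to 0.119) lay under all 6 in pQ (0.171 to 0.317). The 3 h and 5 h values of a replicate share their 0 h libraries, so these are not 6 independent values. The model treats them as independent, so its SE may be too small. How many of all genes split in this way was not counted. The difference was -0.18 ± 0.03 with an adjusted p of 0.694 (limma linear model, Benjamini-Hochberg), and 4.79% of 12428 genes passed the unadjusted threshold. None passed after adjustment. In siCTU2 the CCNL2 index was 0.215 ± 0.0818 and in siGL2 0.0856 ± 0.0332, a difference of 0.13 ± 0.07 (adjusted p = 0.659). Without replicate 3 this difference was 0.08 ± 0.09 (adjusted p = 0.925). With all libraries of siCTU2 and siGL2, 0 of 5 members passed, beside 8.16% of all genes. The CCNL2 difference in mQ depended on the scale: with genes stable at both times, only 3 in number, it was about 0, with an SE of 0.06 (adjusted p = 0.994), and with TMM scaling it was -0.29 ± 0.11 (adjusted p = 0.573). On the scale of genes stable at both times, CLK3 passed the unadjusted threshold instead (0.15 ± 0.05, adjusted p = 0.143). Without replicate 3, CLK1 passed beside CCNL2 (0.11 ± 0.04 and -0.20 ± 0.04, adjusted p = 0.379 and 0.298), and 1596 of 12326 genes did.

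**Figure D5:**
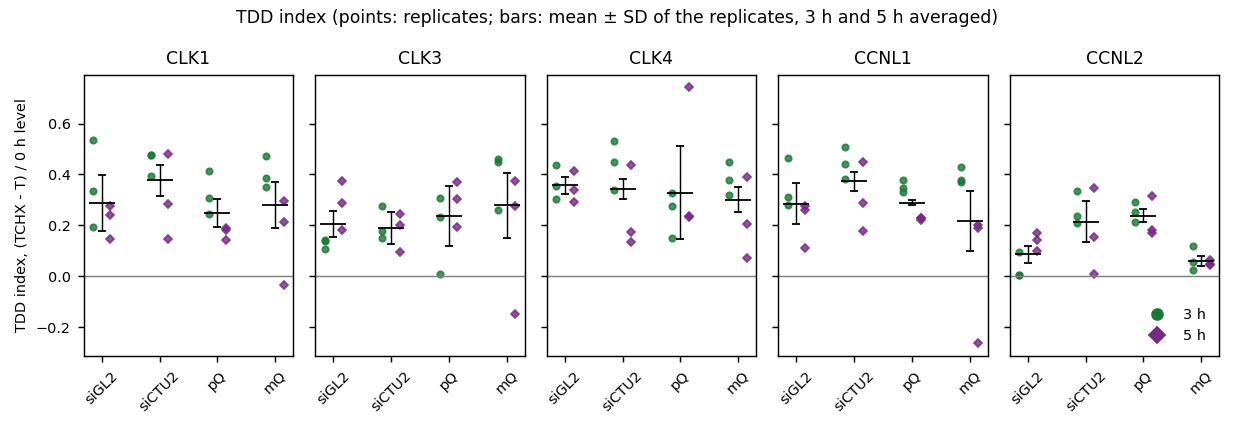
TDD index (vertical axis, TCHX minus T over the 0 h level) of each mRNA in the 4 conditions, at 3 h (green circles) and 5 h (purple diamonds); points are replicates, bars the mean ± SD of 3 replicates after averaging both times. CCNL2 in mQ (0.0595 ± 0.0210) lay under pQ (0.238 ± 0.0244) with no overlap, and the lowest points of CLK1, CLK3 and CCNL1 in mQ at 5 h were below 0.

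Across the 24 group means of log2(CPM + 1), CLK1 and CCNL1 followed each other closely (Pearson r = 0.93), whereas CCNL2 and CLK3 did not (r = -0.14). These points share libraries and depth, and most of the spread is the time course itself. The 3 genes most like CLK1 among 9663 were ZNF551 (r = 0.98), ZNF830 (r = 0.97) and C1orf74 (r = 0.97). For CCNL1 they were IRF2BP2, ZNF260 and RNF113A, all at r = 0.97. The genes closest to CLK3 were TMEM199, BYSL and AURKB (r = 0.94 to 0.95), and those closest to CCNL2 were HDAC4, PKD1 and CNTNAP3B (r = 0.83). CLK4 was under the mean of 5 CPM that this search asked for.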

How the data were processed

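The deposited table holds raw read counts per gene. The authors trimmed forward reads with fastp 0.20.1, aligned them with HISAT2 2.2.1 to GRCh38.p13 and made the counts with HTSeq 0.13.5 on exons of the NCBI annotation. Removal of PCR duplicates by molecular identifiers and the strand setting are not given in the sources used here. From these counts, CPM used library totals. Time courses were scaled by the median ratio of stable genes (197 for the siRNA and 81 for the medium experiment), which had over 0.2 CPM at 0 h and gained at least 1.1-fold in CPM by one of the later times in every replicate. Tests used edgeR 4.0.16 (quasi-likelihood, filterByExpr, TMM at 0 h, adjusted p under 0.05) and, as an alternative, DESeq2 1.42.0, in R 4.3.3. The TDD index was fitted by ordinary least squares in limma 3.58.1 (variances not moderated, mean 0 h count of at least 10). A pseudocount of 1 was used on log2 scales. Scripts were tested on simulated data. The members and lists were chosen with earlier results of these data known. Named were all members, CTU2, the called gene of largest change per list and 0 h comparison, and the 3 genes most correlated with each member. Totals of 5987692 to 15534331 reads set the precision, and floors of 3 reads cover counting error only.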

Additional observations from a re-analysis of the deposited data

Results flagged for a closer look

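The TDD index of CCNL2 differed between glutamine-free and control medium by -0.18 ± 0.03. All 6 values in mQ lay under all 6 in pQ, but the 3 h and 5 h values of a replicate are not independent. The share of all genes that split in this way was not counted. This difference was singled out because the linear model tests a difference between conditions in an effect of cycloheximide. The gene passed the unadjusted threshold of 0.05. The adjusted p was 0.694 (ordinary least squares in limma), so it fails the correction over 12428 genes. With moderated variances the adjusted p was 0.998 (limma moderated t-test). With genes stable at both times the difference was about 0 (adjusted p = 0.994), and with TMM it was -0.29 ± 0.11 (adjusted p = 0.573).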

How the results depend on the processing

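Each setting was changed one at a time. Of 83 alternative counts of members called, 69 stayed within 1.5 times. A count of 0 that stayed at 0 and a fall from 3 to 2 are both among what counts as staying. The siCTU2 against siGL2 count at 0 h (3) ranged from 1 to 3 when 1 library was left out and was 2 with DESeq2, where CLK3 lost its call. That of mQ against pQ (2) was 1 in the TCHX arm, 1 with the replicate block and 0 to 2 with 1 library left out. The mQ against pQ counts of the T-arm change and of TCHX minus T (both 0) were 1 without the low-count filter and 0 to 1 with 1 replicate left out, CCNL1 each time. The TDD index counts were 1 in siCTU2 (0) with the 0 h library of each arm as reference, and 1 to 2 in mQ (1) with 1 replicate left out. The cause of these shifts was not tested. The CCNL2 gap between arms turned to -0.18 in pQ at 5 h with genes stable at both times and to -0.054 in mQ at 3 h with TMM. Of 400 alternative values of shares left and gaps between arms, 334 moved by less than 1 SD. With TMM, 44 stayed, 35 moved further and 1 reversed, and with genes stable at both times 60, 19 and 1. The others left out 1 of 3 replicates. That cannot move a gap between arms by 1 SD, so those gaps were bound to stay. Of 413 alternative member tests, 334 kept their direction and call, 17 lost a call, 7 gained one and 55 uncalled values changed sign.

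Over all genes, the mQ against pQ count at 0 h was 3071, 810 in the TCHX arm, 2555 there without pQ replicate 3, and 1476 to 3319 with 1 T-arm library left out. The siCTU2 counts of 54 (TCHX minus T) and 15 (T-arm change) were 157 and 68 by DESeq2, 32 and 27 with TMM, 9 and 0 with genes stable at both times, 137 and 95 without the filter, 0 and 0 at 3 h alone, 36 and 108 without the siCTU2 TCHX 5 h library of replicate 3, and 1 to 54 and 0 to 155 with 1 replicate left out. Those of mQ, both 0, were 90 and 189 without the filter, 301 and 963 without replicate 3, and 82 and 29 without its mQ T 5 h and pQ TCHX 0 h libraries. TDD index counts went from 1003 to 2208 in siCTU2 and from 595 to 2812 in mQ with each arm's own 0 h library, and to 543 and 3171 with genes stable at both times.

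Same-numbered replicates correlated at -0.04 to 0.08 in the T arm at 0 h, which does not settle whether the numbers pair the libraries. The headers of the counts give same-numbered libraries a shared prefix across all groups, but not what it stands for. The main edgeR tests had no replicate term. The TDD index combines same-numbered libraries, as if they were paired. With the replicate block, the members called were 3 in siCTU2 and 1 in mQ at 0 h, where CLK3 had an adjusted p of 0.0611 (edgeR), and 0 in the tests over 36 libraries. The block took the all-gene counts from 54 to 74 and from 15 to 28 in siCTU2. Settings that left out single odd libraries were chosen after seeing the data. Low counts limit CLK4 and, after the block, CLK1, and the 3 libraries with unusually many genes limit the 5 h values of mQ (T arm) and siCTU2 (TCHX arm) and the 0 h values of pQ (TCHX arm).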
